A study of Homo sapiens with 13 samples.

Results

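H3K27me3 regions that lie away from H3K4me3 were examined in the established human embryonic stem cell line H1, also named WA01. The regions were chosen by 2 measured lists: they are the H3K27me3 peaks of wild-type (WT) cells that overlapped no WT H3K4me3 peak by even 1 bp, and they are called peaks off H3K4me3 here. They numbered 3045 of 11906 WT H3K27me3 peaks, 25.6% of the peaks and 17.8% of the bases, or 9.28 of 52.2 Mb. The other 8861 peaks, 74.4% of all, touched H3K4me3, and where both marks lie together the H3K4me3 peak is called bivalent. The KO cells, labelled 1-10, were homozygous for a ZNF263 knockout. For the FLAG ChIP, KO cells of the same label expressed ZNF263-FLAG ectopically, and peaks of that list are called FLAG peaks; they were not mapped in WT cells. The WT cells were H1 with no listed change. Chromatin of all groups was fixed with 1% formaldehyde for 10 minutes and mapped by ChIP-seq. Each arm held 1 library and the KO cells carry a single label, so no test between genotypes was possible and no difference has a replicate check.

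H3K27me3 is written by Polycomb repressive complex 2 and is typical of silent developmental genes. In embryonic stem cells most of it sits on CpG-rich promoters that also carry H3K4me3, the bivalent state. Polycomb marks away from H3K4me3 are found as flanks of such promoters, as broad blankets over silent loci and as small isolated patches. ZNF263 is a zinc finger transcription factor that binds DNA in a sequence-specific way. All coordinates are hg19, counted from 1. Genes and sequences are not given because no hg19 annotation or genome was used here.

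Membership was set by the WT lists alone, and the later split by KO H3K27me3 uses the KO list, so the sizes of these sets are a description. Of the 3045 peaks off H3K4me3, 1059 (34.8%, 33.1 to 36.5) overlapped no KO H3K27me3 peak and 1986 overlapped at least 1. Over all WT H3K27me3 peaks 21.6% lacked a KO peak. Intervals are Wilson 95% intervals for shares and Newcombe 95% intervals for differences, and they cover the counting of peaks only. The lists hold no read counts, so the depth of the libraries is unknown, and absence of a peak says only that the caller listed none there. KO H3K27me3 peaks numbered 10375 over 50.3 Mb, against 11906 over 52.2 Mb in WT. With equal numbers of KO and WT peaks, the highest by score, 21.6% (19.95 to 23.3) of peaks off H3K4me3 lacked a KO peak, and the part of read depth was not tested.

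The border of the rule runs between peaks that touch H3K4me3 by a few bases and peaks that just miss it. The 3 just inside were chromosome 16, 49247988 to 49250166, 1 bp from a WT H3K4me3 peak; chromosome 5, 120041252 to 120044540, 4 bp from one; and chromosome X, 68484073 to 68487898, 7 bp from one. Their scores, the authors' own value per peak from peak calling, were 64.7, 219 and 1081. The 3 just outside were chromosome 2, 144649778 to 144652715, with 1 bp on H3K4me3 and a score of 256, chromosome 17, 31669432 to 31670960, with 9 bp and 51.4, and chromosome 14, 104003428 to 104008010, with 17 bp and 97.1. In all, 167 peaks off H3K4me3 (5.48%) lay within 1 kb of a WT H3K4me3 peak.

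Most of these regions were narrow and weak, with a small number of very broad ones. Their median width was 1933 bp (quartiles 1360 and 3279), against 3502 bp (2244 and 5316) for peaks on H3K4me3. The median score was 88.5 off H3K4me3 and 481 on it. Peaks wider than 10000 bp numbered 108 off H3K4me3 (3.55%, 2.95 to 4.26), against 638 on it (7.20%, 6.68 to 7.76). Scores of 3100 or more, a value at which many peaks tie, were reached by 144 peaks off H3K4me3 and 1809 on it.

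**Figure D1:**
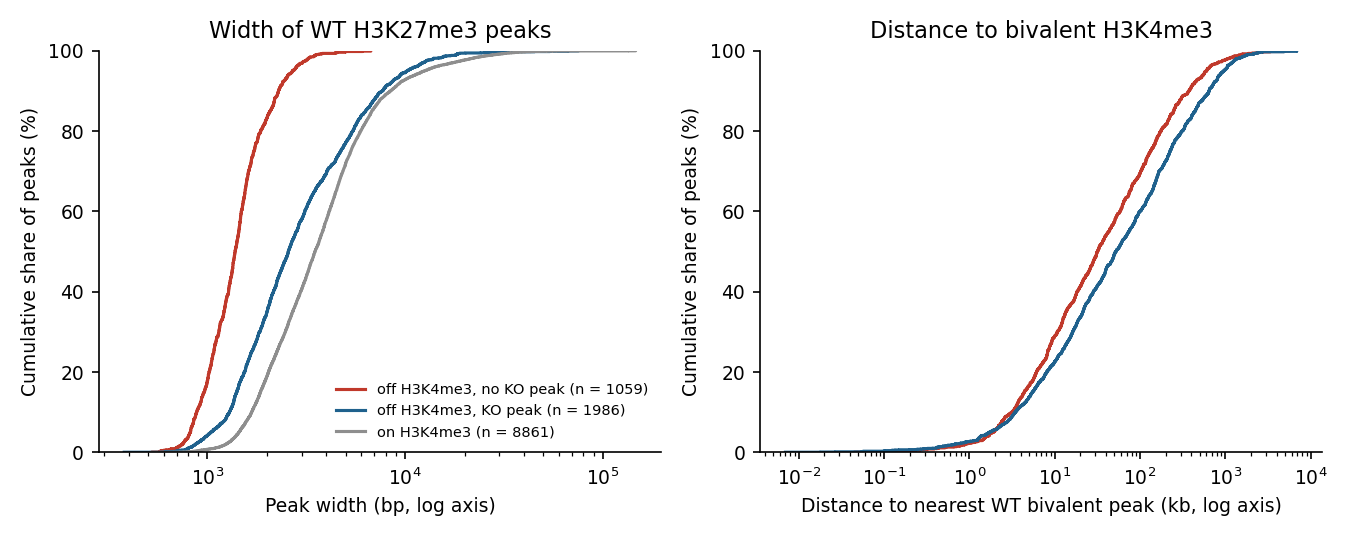
Cumulative share of WT H3K27me3 peaks (y axis, %) by width in bp (left) and by distance in kb to the nearest WT bivalent H3K4me3 peak (right), both on log axes. Red, peaks off H3K4me3 with no KO peak; blue, peaks off H3K4me3 with a KO peak; grey, peaks on H3K4me3. The median widths are 1378, 2564 and 3502 bp, and the median distances of the red and blue sets are 31.65 and 52.05 kb.

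Peaks off H3K4me3 that had no KO partner were the narrowest set. Their median width was 1378 bp (quartiles 1077 and 1718), against 2564 bp (1670 and 4725) for those with a KO peak. The widest was 6709 bp, and 7 of the 1059 were wider than 4000 bp, against 603 of the 1986 with a KO peak. Their median score was 53.9, close to the lowest score of 40 in the list, against 153 for those with a KO peak. None of the 144 peaks with a score of 3100 or more lacked a KO peak. The 1059 regions summed to 1.60 Mb, or 3.055% of WT H3K27me3 bases.

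The peaks off H3K4me3 were cut into 4 equal classes by width and, separately, by score. No KO peak was present at 66.7% (63.2 to 69.9) of the narrowest class, up to 1360 bp, at 46.9% and 23.0% of the next 2 classes, and at 2.50% (1.60 to 3.87) of the widest class, 3281 bp and more. By score it was 69.3% (65.9 to 72.5) in the lowest class and 0.657% (0.281 to 1.53), 5 of 761 peaks, in the highest.

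Peaks off H3K4me3 lacked a KO peak more often than peaks on H3K4me3, and at 1 bp of overlap the shares were close among peaks of like width. The pooled shares were 34.8% off H3K4me3 and 17.1% on it, a difference of 17.7 points (15.8 to 19.5). The whole WT list was cut into 4 equal classes by width, and the interval of the difference included 0 in each of the 4. Among the narrowest peaks, 379 to 1913 bp, 57.2% off H3K4me3 and 56.7% on it had no KO peak, 0.435 points apart (-3.12 to 3.99). From 1914 to 3081 bp they were 24.2% and 23.1%, 1.00 point apart (-2.49 to 4.70). From 3082 to 4986 bp they were 6.74% and 5.38%, 1.36 points apart (-0.968 to 4.49). From 4988 bp up they were 0.649% and 0.557%, 0.0927 points apart (-0.477 to 1.36). The closeness did not hold under 2 alternatives. When a KO peak within 5 kb counted as present, the narrowest class differed by -10.4 points (-13.9 to -6.88). The other alternative kept the upper 50% of every list by score, H3K4me3 included. Among its WT H3K27me3 peaks 2154 counted as off H3K4me3, against 688 by the full H3K4me3 list. With classes cut anew, the differences there were -7.61 (-12.6 to -2.57) in the narrowest class, 0.884 (-3.14 to 5.14) in the next, 5.37 (2.37 to 8.83) in the third and 1.26 (0.282 to 2.68) in the widest.

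Within 4 equal classes of the WT list by score the direction turned. In the lowest, scores of 40 to 85.9, 60.6% of peaks off H3K4me3 and 65.1% of those on it had no KO peak, a difference of -4.51 points (-7.97 to -1.04). The next class, scores of 85.9 to 294, gave 17.7% and 23.6%, a difference of -5.93 points (-8.97 to -2.73). For the lowest class the difference was -3.04 points (-6.47 to 0.433) with an overlap of 50% of the smaller peak. It was -15.3 (-18.8 to -11.7) when a KO peak within 5 kb counted as present. In the upper 50% of every list by score, classes were cut anew among WT peaks with scores of about 294 and more. These are other peaks, set against shortened H3K4me3 and KO lists. The lowest of the new classes gave -15.75 points (-20.7 to -10.7) and the next -2.89 (-5.96 to 0.311). In the upper 2 score classes of the whole WT list nearly all peaks of both sets had a KO peak, with 3 of 688 peaks off H3K4me3 and 51 of 5265 on it lacking a KO peak. The pooled difference fell to 1.545 points (-0.414 to 3.56) with only the upper 50% of the peaks of every list by score. Peaks counted there as off H3K4me3 can touch H3K4me3 peaks outside the upper 50%.

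**Figure D2:**
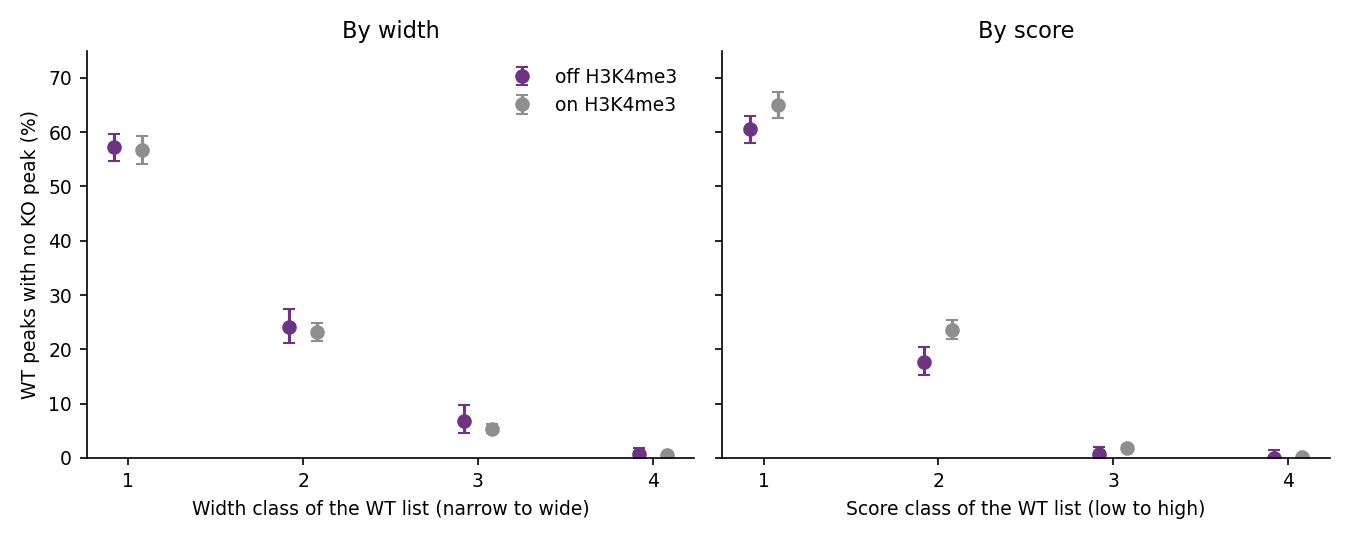
Share of WT H3K27me3 peaks with no KO H3K27me3 peak (y axis, %) in 4 equal classes of the WT list by width (left) and by score (right), for peaks off H3K4me3 (purple) and on H3K4me3 (grey). Bars are Wilson 95% intervals; the intervals overlap in each width class, and the purple points are lower than the grey in the 2 lowest score classes, at 60.6% and 17.7%.

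Where a KO peak was present, it mostly covered the WT region. KO peaks covered a median of 96.9% of each of the 1986 regions, 1872 were covered over at least 50% of their length, and 698 in full. The widest KO peak on a region was wider than the WT peak in 1323 cases and narrower in 662, with a median ratio of KO to WT width of 1.10. A KO peak joined 2 or more of these regions in 145 cases, while 144 regions were split over 2 or more KO peaks. For 144 regions the KO peak also reached a WT H3K27me3 peak on H3K4me3.

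Some of the peaks with no KO partner lay close to KO H3K27me3. A KO H3K27me3 peak lay within 5 kb of 382 of the 1059 (36.1%, 33.2 to 39.0) and within 1 kb of 174. Of the 1516 peaks on H3K4me3 without a KO peak, 254 (16.8%, 15.0 to 18.7) had one within 5 kb and 145 within 1 kb. The median gap to the nearest KO peak was 13.8 kb for the 1059 and 53.9 kb for the 1516. The nearest WT bivalent peak held H3K27me3 in KO for 84.4% (82.1 to 86.5) of regions without a KO peak, against 89.5% (88.05 to 90.75) of regions with one, a difference of -5.06 points (-7.69 to -2.55). Over all WT H3K27me3 peaks the share was 85.3%.

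By their surroundings the 3045 regions were divided into flanks, clusters and isolated patches. Flanks, within 5 kb of a WT H3K27me3 peak on H3K4me3, numbered 598 (19.6%) with a median width of 1629.5 bp. Regions within 5 kb of another peak off H3K4me3 only, called clustered here, numbered 817 (26.8%), with a median width of 1961 bp. The other 1630 (53.5%) were isolated, more than 5 kb from any WT H3K27me3 peak, with a median width of 2061 bp. No KO peak was present at 37.5% (33.7 to 41.4) of flanks, 22.5% (19.8 to 25.5) of clustered regions and 39.9% (37.6 to 42.3) of isolated ones. In the narrowest width class these shares were 57.1% (50.01 to 64.0), 48.1% (41.0 to 55.3) and 80.2% (75.9 to 83.8), and in the widest 3.53%, 2.15% and 2.45%. Among these classes the narrow isolated patches had the largest share without a KO peak. KO H3K27me3 lay within 5 kb of 204 of the 224 flanks without a KO peak and of 44 of the 651 isolated regions without one. The classes were set by nearness to other WT H3K27me3 peaks, which favours this contrast. Of 581 pairs of neighbouring regions up to 5 kb apart, 58 had no KO peak at either, 148 at 1 of them and 375 had a KO peak at both.

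Distance from bivalent chromatin spanned 7 bp to 6882 kb. The median gap to the nearest WT bivalent H3K4me3 peak was 31.65 kb (quartiles 8.28 and 133) for regions without a KO peak and 52.05 kb (12.15 and 225) for regions with one. This order depended on the setting: when a region counted as without a KO peak only if none lay within 5 kb, the medians were 59804 bp for regions without one and 39231.5 bp for the others. In the upper 50% of every list by score they were 113802 and 118607 bp, with regions and bivalent peaks set anew from the shortened lists. The share without a KO peak was 39.1% (34.7 to 43.7) within 5 kb, 39.5% (35.8 to 43.3) from there to 20 kb, 36.2% (33.0 to 39.5) to 100 kb and 28.9% (26.3 to 31.6) beyond 100 kb. Median widths in these 4 classes were 1585, 1900.5, 2054 and 2069 bp: the regions nearest to bivalent peaks were also the narrowest. For 9 regions no bivalent peak lay on the same chromosome or contig.

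FLAG peaks were less frequent in these regions than in H3K27me3 peaks on H3K4me3. They lay in 241 of 3045 regions (7.91%, 7.01 to 8.93), against 5559 of 8861 peaks on H3K4me3 (62.7%, 61.7 to 63.7). The difference was -54.8 points (-56.2 to -53.4), and over all WT H3K27me3 peaks 48.7% held a FLAG peak. In the upper 50% of every list by score, 23.7% (21.9 to 25.5) of peaks off the shortened H3K4me3 list held one, and the difference was -40.95 points. Those 2154 peaks include ones that touch H3K4me3 peaks of the full list. FLAG shares were lower off H3K4me3 in each width class of the WT list. The shares off and on H3K4me3 were 6.91% and 46.8% among the narrowest, 10.2% and 56.0% in the next class, 8.63% and 63.3% above that, and 7.14% and 77.6% among the widest. Per length, FLAG peaks numbered 26.0 per Mb off H3K4me3 and 145 per Mb on it, and their density outside H3K27me3 peaks was not computed. The median FLAG score was 82.0 (quartiles 61.0 and 134) off H3K4me3 and 140 (84.0 and 249) on it. Over the whole FLAG list the median was 86.7, close to that off H3K4me3. The peak numbers in the FLAG list run to 23152 with 186 missing, and whether any of those lay in these regions was not tested.

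Most FLAG peaks on these regions were clear of H3K4me3 in both genotypes, which the choice of regions off WT H3K4me3 favours. Of the 241 FLAG peaks involved, 1.05% of the FLAG list, 154 had their midpoint inside such a region, and 28 also reached an H3K4me3 peak of KO or WT cells. Over the whole FLAG list, 11384 of 22966 peaks reached no H3K4me3 peak of either genotype. Regions with a FLAG peak lay nearer to bivalent chromatin, at a median of 15.45 kb, against 50.1 kb for those without. FLAG peaks were present in 12.5% (9.77 to 15.9) of regions within 5 kb of a bivalent peak, 13.3% (10.9 to 16.1) from there to 20 kb, 9.17% (7.38 to 11.3) to 100 kb and 1.97% (1.31 to 2.97) beyond 100 kb. Per Mb of H3K27me3 these classes held 55.8, 50.1, 26.3 and 5.99 FLAG peaks.

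Regions without a KO peak held FLAG peaks slightly more often than regions with one at 1 bp of overlap, and the difference varied with width and with the definition of overlap. The shares were 9.35% (7.74 to 11.3), 99 of 1059, and 7.15% (6.10 to 8.37), 142 of 1986, a difference of 2.20 points (0.180 to 4.37). With an overlap of at least 50% of the smaller peak the difference was -0.468 points (-2.19 to 1.37). Among the upper 50% of every list by score, with regions set anew from the shortened H3K4me3 list, it was -4.65 points (-8.89 to 0.0805). The direction thus changed with these settings. The interval also included 0 for regions at least 5 kb from H3K4me3, 1.47 points (-0.668 to 3.84), when a KO peak within 5 kb counted as present, 1.60 (-0.656 to 4.21), and without chromosomes 19 and 20, 1.87 (-0.234 to 4.18). By width class of these regions it was 0.787 points (-3.07 to 3.98) among the narrowest, 3.40 (-0.544 to 7.51) in the next, 6.73 (1.46 to 13.1) in the third and 24.7 (8.36 to 47.2) among the widest, where 6 of 19 regions without a KO peak and 51 of 742 with one held a FLAG peak. Within the distance classes it was 3.83, -1.50, 4.16 and -0.154 points, and of the 4 intervals that of 20 to 100 kb lay above 0 (0.0373 to 8.79) while the others included 0. Leaving out FLAG peaks that reach H3K4me3 gave 8.40% and 6.29%, a difference of 2.11 points (0.198 to 4.185).

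**Figure D3:**
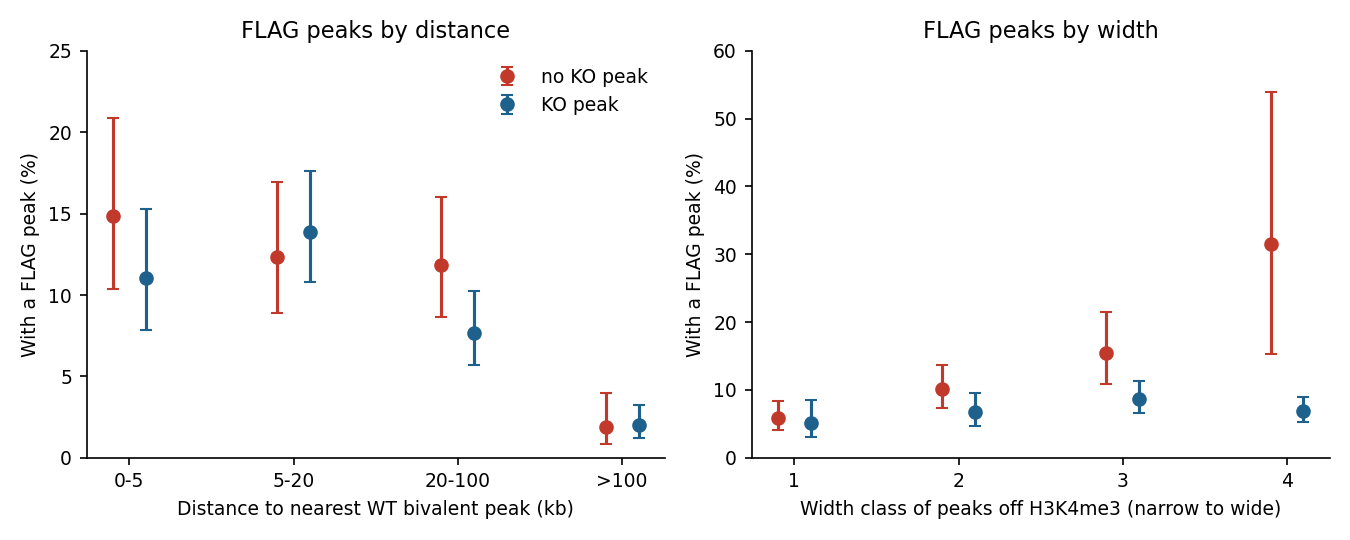
Share of peaks off H3K4me3 that hold a FLAG peak (y axis, %), by distance to the nearest WT bivalent peak in kb (left) and by width class (right), for regions without a KO H3K27me3 peak (red) and with one (blue). Bars are Wilson 95% intervals; beyond 100 kb the shares are 1.86% and 2.02%, and in the widest class the red point rests on 19 regions.

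The mirror set in KO, KO H3K27me3 peaks that overlapped no KO H3K4me3 peak, was near in number. Its peaks with no WT partner held FLAG peaks less often than WT regions without a KO peak. The mirror set held 2772 peaks, 26.7% (25.9 to 27.6) of the KO list, over 9.76 Mb, and 187 of them (6.75%, 5.87 to 7.74) held a FLAG peak. Of the 2772 peaks, 824 (29.7%, 28.05 to 31.45) overlapped no WT H3K27me3 peak, and over all KO H3K27me3 peaks 11.0% did not. The median width of the 824 was 1464 bp, close to the 1378 bp of WT regions without a KO peak. FLAG peaks lay at 99 of the 1059 WT regions without a KO peak (9.35%), against 31 of these 824 (3.76%, 2.66 to 5.29). The difference, WT regions minus KO regions, was 5.59 points (3.37 to 7.78), and it was not computed under the alternative settings.

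Other marks were rare. The rule did not use their lists, but leaving out peaks on WT H3K4me3 favours this. Of 1399 WT H3K27me3 peaks with WT H3K27ac, 1383 were on H3K4me3. H3K27ac overlapped 12 of the 3045 regions in KO (0.394%, 0.226 to 0.688) and 16 in WT (0.526%, 0.324 to 0.852), against 8.79% and 11.8% of all WT H3K27me3 peaks. Only 4 regions had H3K27ac in both genotypes. None of the 24 regions with H3K27ac in KO or WT held a FLAG peak, against 7.91% of all 3045 regions. No interval was computed for this small set. In all, 2674 regions (87.8%) overlapped no H3K27ac peak, no KO H3K4me3 peak and no FLAG peak. Over all WT H3K27me3 peaks this share was not computed, but 73.0% overlapped KO H3K4me3 and 48.7% a FLAG peak. The choice of regions off WT H3K4me3 favours a high share here.

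A KO H3K4me3 peak lay on 127 regions (4.17%, 3.52 to 4.94), against 73.0% of all WT H3K27me3 peaks. The choice of regions off WT H3K4me3 favours this, since 96.6% of peaks on WT H3K4me3 had a KO H3K4me3 peak. It was found at 27 regions without a KO H3K27me3 peak (2.55%, 1.76 to 3.68) and at 100 with one (5.04%, 4.16 to 6.09). At 108 regions this KO H3K4me3 had no WT H3K4me3 peak under it, and 88 of these also had a KO H3K27me3 peak. The 102 KO H3K4me3 peaks concerned were weak, with a median score of 72.7 and a highest score of 184, against a median of 1958 over the KO H3K4me3 list. FLAG peaks lay at 10 of the 102.

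The regions with the strongest KO H3K4me3 lay beside WT H3K4me3. Of 7 regions tied at a KO H3K4me3 score of 3100, the 5 widest, named by the rule, lay within 241 bp of a WT H3K4me3 peak. They were chromosome 10, 15903277 to 15911445; chromosome 1, 205403331 to 205409418 and 71547916 to 71551064; chromosome 5, 120041252 to 120044540; and chromosome 12, 58331472 to 58333857. Both chromosome 1 regions had no KO H3K27me3 peak. None of the 5 held a FLAG peak.

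The strongest regions had KO peaks over most of their length. The 3 highest scores belonged to an 8794 bp peak at chromosome 3, 58618662 to 58627455 (score 3202), a 10179 bp peak at chromosome 1, 94719161 to 94729339 (score 3185), and a 9171 bp peak at chromosome 2, 109714352 to 109723522 (score 3107). KO peaks covered 92.6%, 98.2% and 95.6% of them. None of the 3 held a FLAG peak, and the nearest WT bivalent peaks lay 45.2, 4.90 and 20.2 kb away.

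The broadest regions lay on chromosomes 22 and 11. On chromosome 22 they ran from 22499885 to 22575294 (75410 bp), from 22404555 to 22471483 (66929 bp), from 22338369 to 22404459 (66091 bp) and from 22712521 to 22757561 (45041 bp). The fourth in width was at chromosome 11, 2601453 to 2655552 (54100 bp). All 5 had a score of 3100, at least 99.2% of each was covered by KO peaks, and none held a FLAG peak.

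The regions without a KO peak that had the largest scores were scattered. The highest, 1994 bp at chromosome 12, 130823207 to 130825200 (score 810), lay 70.5 kb from any KO H3K27me3 peak and 106 kb from a FLAG peak. The next, at chromosome 13, 21007916 to 21011154 (score 563), held a weak FLAG peak of score 57.3. The third, 6709 bp at chromosome 20, 60375062 to 60381770 (score 325), was the widest region without a KO peak and lay 0.945 kb from a FLAG peak. The others, at chromosome 20, 25128128 to 25130962 (score 263), and at chromosome 9, 36861841 to 36866290 (score 260), held FLAG peaks of score 52.9 and 88.3. At 4 of these 5 the nearest WT bivalent peak held H3K27me3 in KO, and the exception was the 6709 bp region. Over all regions without a KO peak this share was 84.4%.

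The 5 regions without a KO peak that carried the strongest FLAG peaks had H3K27me3 scores of 43.2 to 93.4. The median of all regions without a KO peak was 53.9. At chromosome 11, 63793444 to 63795699, the FLAG score was 608 while the H3K27me3 score was 93.4, and KO H3K27me3 came within 8 bp. At chromosome 16, 88502792 to 88504958, the FLAG score was 549 and KO H3K27me3 lay 3.42 kb away. The region at chromosome 1, 1090639 to 1092166, had a FLAG score of 506 and a KO H3K4me3 peak of score 1542, with a WT H3K4me3 peak 643 bp away. Neighbouring regions at chromosome 1, 1176199 to 1177207 and 1178372 to 1179900, shared a FLAG peak of score 416.

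Most of the named regions far from bivalent chromatin had a KO peak, and so did most regions of like score. In the 2 upper score classes of peaks off H3K4me3, 18.3% and 0.657% lacked one. Among the upper 50% by score, the 5 farthest from a bivalent peak were 3 on chromosome Y, 14587091 to 14591880, 14535625 to 14537378 and 14479355 to 14482650, 1 on chromosome X, 96313820 to 96315100, and 1 on chromosome 4, 69230410 to 69237248. Their gaps were 6882, 6830.1, 6774, 3343 and 2693 kb. The chromosome X region had no KO peak, the others were covered over 86.8% to 100% of their length, and none of the 5 held a FLAG peak.

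Peaks off H3K4me3 were also grouped into tracts, in which neighbours were up to 25 kb apart. This grouping and the tracts named from it were chosen after the values were seen. Most regions had no other peak off H3K4me3 within 25 kb, with 1757 single regions, 337 pairs and 125 tracts of 3 to 9. Single regions can still lie near H3K27me3 peaks on H3K4me3, which the tracts leave out. The 10 tracts of 10 or more held 162 regions over 0.882 Mb. Of these 162, 22.2% (16.5 to 29.2) had no KO peak and 10.5% (6.66 to 16.2) held a FLAG peak, against 39.8% (37.6 to 42.1) and 8.54% (7.32 to 9.94) of single regions.

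The long tracts differed from each other in KO. The largest in bases, at chromosome 22, 22338369 to 22812371, held 26 regions that covered 425 kb, 89.6% of its span. All 26 had a KO peak, KO covered 98.3% of their bases, and none held a FLAG peak. On chromosome 11 the tract from 2458046 to 2684530 held 24 regions over 159 kb, of which 4 had no KO peak and 5 held a FLAG peak. The 4 regions without a KO peak were 1012 to 2475 bp wide and lay between its start and 2496964, while the 54100 bp region lay in its right part. The neighbouring tract at 2752019 to 2877392 had 18 regions, of which 2 had no KO peak, and 9 held a FLAG peak, the most of any long tract.

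On chromosome 20 the long tracts differed in width and score. From 59633364 to 59817084, 28 regions with a median width of 2061.5 bp and a median score of 78.6 covered 33.0% of the span. Over all peaks off H3K4me3 these medians were 1933 bp and 88.5. KO had no peak at 9 of them, whose scores were 40.4 to 159. KO peaks covered 60.9% of the bases of the 28. From 60230063 to 60290662, none of 10 regions had a KO peak. These 10 were 863 to 1733 bp wide with a median score of 46.85, and none held a FLAG peak. The other long tracts were on chromosomes 9, 12, 1 and 22, where 11 of 56 regions had no KO peak.

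**Figure D4:**
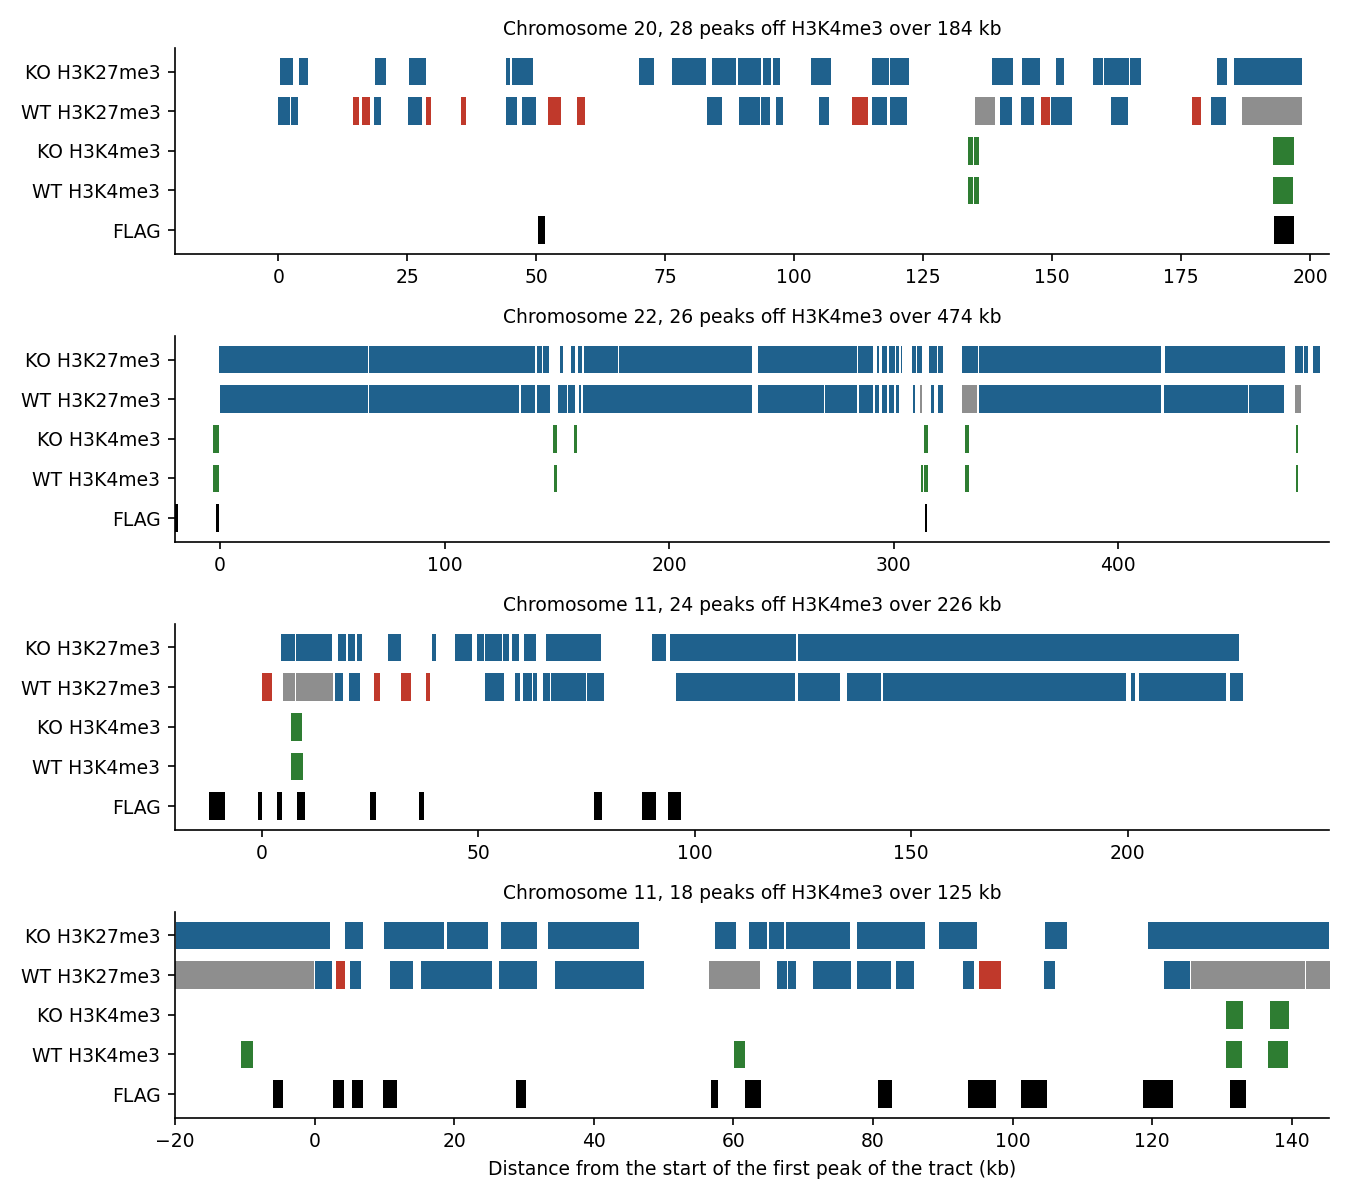
The 4 tracts with the most peaks off H3K4me3, with peak positions as distance in kb from the start of the first region. Rows show KO and WT H3K27me3, KO and WT H3K4me3, and FLAG; in the WT H3K27me3 row, red marks regions without a KO peak, blue regions with one and grey peaks on H3K4me3. The regions of the chromosome 22 tract cover 89.6% of its span, while 9 of 28 regions of the chromosome 20 tract are red.

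The share of regions without a KO peak varied among chromosomes, and those named here were chosen after their values were seen. Among the 22 autosomes the share ran from 23.5% (15.0 to 34.9) on chromosome 13 to 56.5% (48.4 to 64.2) on chromosome 19, with a median of 33.5%. Chromosome 20 was next to the highest at 51.7% (43.7 to 59.6), and 52.3% (43.0 to 61.3) outside its long tracts. It also had the largest proportion of its WT H3K27me3 peaks off H3K4me3 among autosomes, 149 of 417 (35.7%). Regions on chromosomes 19 and 20 were narrow and weak, with median widths of 1686 and 1701 bp and median scores of 68.25 and 67.8. Within the 4 width classes the share without a KO peak on these chromosomes was 78.7%, 62.4%, 37.3% and 11.9%, against 65.0%, 45.0%, 21.4% and 1.95% elsewhere. In the narrowest class the intervals were 69.4 to 85.8% on chromosomes 19 and 20 and 61.3 to 68.5% elsewhere. Peaks on H3K4me3 lacked a KO peak at 23.4% on chromosome 19 and 13.8% on chromosome 20. On all 22 autosomes the pooled share was higher off than on H3K4me3.

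FLAG peaks on these regions were uneven as well. They lay at 18.5% (13.7 to 24.5) of regions on chromosome 11, 17.7% (12.4 to 24.6) on chromosome 19, 16.8% (10.9 to 25.03) on chromosome 16 and 15.3% (10.0 to 22.7) on chromosome 17, and at 2.94% (0.810 to 10.1) on chromosome 13. Outside the long tracts chromosome 11 still had 14.6% (9.90 to 20.9). Chromosome 20 had FLAG peaks at 5 of 149 regions (3.36%, 1.44 to 7.61), against 17.7% on chromosome 19. None of 67 regions on chromosome X held one, a count of 0 that allows a share of up to 4.48%, taken as 3 counts of the total. Peaks on H3K4me3 on chromosome X held FLAG peaks at 32.2%, also below the 62.7% of all peaks on H3K4me3.

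**Figure D5:**
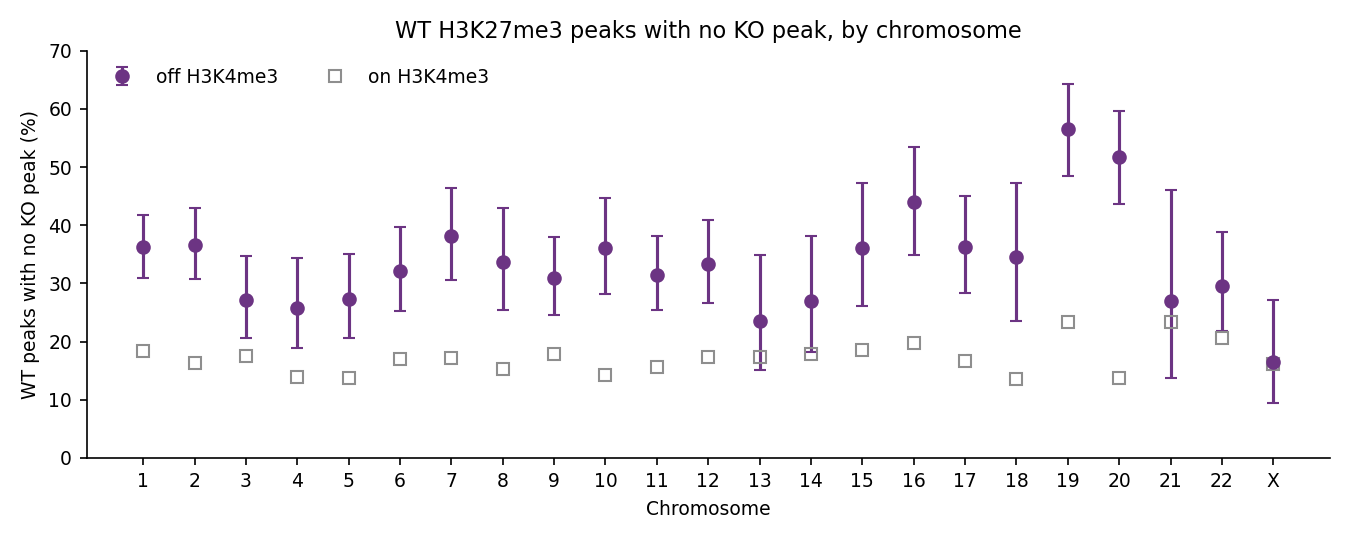
Share of WT H3K27me3 peaks with no KO H3K27me3 peak (y axis, %) on each autosome and chromosome X, for peaks off H3K4me3 (purple, with Wilson 95% intervals) and on H3K4me3 (grey squares). Chromosomes 19 and 20 stand highest among the purple points, at 56.5% and 51.7%.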

How the data were processed

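Peak lists of 6 histone libraries and 1 FLAG library were used, out of 13 samples in 12 groups. Bowtie2, Picard and hg19 are named in the submitters' processing notes, without versions. Peak names begin with MACS; no source used here gives the caller's version, its input control or any pooling. The score of each peak is the authors' deposited value, whose scale is unstated, and was used only within a list. The depth is unknown. The endogenous ZNF263 libraries carry the FLAG list in their labels, and separate peaks of them were not analysed here.

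Overlaps of at least 1 bp, gaps between peak edges and intervals were computed in python 3.11.15 with numpy 2.4.6 and pandas 2.3.3; overlap code was tested on simulated data against bedtools 2.31.1. Peaks were cut into 4 equal classes by width or score. Named regions followed a rule, from which a selection is printed: the 5 highest scores with and without a KO peak, the 5 widest, the 5 farthest from bivalent peaks in the upper 50% by score, the 5 without a KO peak with the strongest FLAG peak, the 5 with the strongest KO H3K4me3, and 3 on each side of the border. The regions, classes and rule were chosen with earlier results of these data known.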

Additional observations from a re-analysis of the deposited data

How the results depend on the processing

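Of 124 values from 10 alternatives for 13 results, 23 left the main interval or quartile range, 2 reversed and 99 did neither. The 99 include all values of the number of regions, which has no interval and lay between 2154 and 3751. The order of the 2 median distances was not counted as a result, and it turned when a KO peak within 5 kb counted as present. The share of regions without a KO peak was 29.0% with peaks up to 1 kb apart counted as overlapping, 17.55% in the upper 50% of each list, 21.6% with equal numbers of KO and WT peaks, 32.7% for regions at least 5 kb from H3K4me3, 22.2% when no KO peak lay within 5 kb, and 32.7% without chromosomes 19 and 20. Its difference from peaks on H3K4me3 was 13.3, 1.545, 9.22, 15.6 and 7.99 points in the first 5 of these. The FLAG share was 9.97% with the 1 kb gap, 23.7% in the upper 50% and 6.85% at least 5 kb from H3K4me3. Its difference from peaks on H3K4me3 was -51.65 points with an overlap of 50% and -40.95 in the upper 50%. The difference in FLAG share between regions without and with a KO peak reversed to -0.468 and -4.65 points under these alternatives, and was 4.90 with equal numbers. The upper 50% and equal numbers shorten the lists by construction, H3K4me3 included. Regions counted there as off H3K4me3 can therefore touch H3K4me3 peaks of the full list. Otherwise the cause was not tested. Leaving out chromosomes 19 and 20, the long tracts or regions with KO H3K4me3 was chosen after the data were seen. No paired analysis was possible because each arm held 1 library, and only the endogenous ChIP has replicate numbers.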
